A study of Mus musculus with 8 samples.

Results

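The AP-1 transcription factor genes were followed through MYC inhibition and its withdrawal in mouse embryonic stem cells (ESCs), which are pluripotent cells derived from early embryos. The 8 members were taken by gene symbol as Jun, Junb, Jund, Fos, Fosb, Fosl1, Fosl2 and Atf3, and all 8 were found among the 18193 genes tested. They are measured by 12 probe sets, sets of short probes for a transcript, of 34945 that carry a single gene symbol. Expression was measured on Affymetrix arrays, 1 per RNA sample, and the deposited values are on a log2 scale, so that a difference of 1 is a 2-fold difference. Culture was feeder-free and serum-free in 2i medium with LIF. Its 2 inhibitors, shared by all groups, block MEK (PD0325901, 1 μM) and GSK3 (CHIR99021, 3 μM). The DMSO group (3 arrays) received solvent for 60 h. The MYCi group (2 arrays) received 64 μM of 10058-F4, a small molecule that hinders the pairing of MYC with MAX, for 60 h. The Resc group (3 arrays), called released cells below, had the same 60 h with the compound and then 48 h in 2i medium without it. No DMSO array was taken at that later time, so time in culture and earlier exposure cannot be told apart in released cells. No genetic change is labelled in any group, and the ESC line is not given in the sources used here. The origin of the replicates is not labelled, and if they are not separate cultures the p-values reflect technical spread.

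AP-1 is a dimer of basic leucine zipper (bZIP) proteins. JUN proteins pair with each other, with FOS proteins or with ATF proteins, whereas FOS proteins need a JUN partner to bind DNA. Fos, Jun and Atf3 are immediate-early or stress-response genes, switched on within minutes to hours by ERK, JNK and p38 kinases or by the integrated stress response, while Jund is transcribed in most cells at rest. Jun is also known to bind and raise its own promoter through an AP-1-like element.

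The known promoter element of Jun was looked for in the 250 bases before each start site, in the RefSeq promoter table of build GRCm38.p6, which held 7 of the 8 members and not Fosl1. The stretches below are the 110 bases before the start of the 4 members that were at least 2-fold higher with the inhibitor and of Junb, which was lower, read 5′ to 3′ on the gene's strand. Capitals mark matches to TGACNTCA, the AP-1 and CRE-like octamer, or to its 5-base part TGACG, on either strand.
Jun: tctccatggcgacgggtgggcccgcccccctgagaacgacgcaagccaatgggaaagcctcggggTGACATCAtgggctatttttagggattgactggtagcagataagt
Jund: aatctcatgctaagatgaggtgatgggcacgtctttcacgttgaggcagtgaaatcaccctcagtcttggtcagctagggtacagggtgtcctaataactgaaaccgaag
Fos: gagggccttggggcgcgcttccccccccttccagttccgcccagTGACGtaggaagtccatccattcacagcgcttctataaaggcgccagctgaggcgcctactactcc
Atf3: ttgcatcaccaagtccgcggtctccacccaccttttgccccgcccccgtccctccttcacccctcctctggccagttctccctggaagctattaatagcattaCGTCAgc
Junb: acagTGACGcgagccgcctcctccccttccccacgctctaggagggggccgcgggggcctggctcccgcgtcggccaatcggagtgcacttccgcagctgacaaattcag
They lie at chr4:95052223-95052332, minus strand; chr8:70697629-70697738, plus strand; chr12:85473780-85473889, plus strand; chr1:191183334-191183443, minus strand; and chr8:84978749-84978858, minus strand. The match in Jun, TGACATCA, spanned 45 to 38 bases before the start. Jun was the only member of 7 with TGACNTCA in the 250 bases, a motif found in 7.49% of 32851 promoter windows of that length. TGACG, added after the other motifs had been searched and contained in TGACNTCA where N is G, was found in 4 of 7 members (Junb, Fos, Fosb and Atf3) against 17.8% of windows. Searches on both strands for the AP-1 heptamer TGANTCA (6.75% of windows), the MYC and MAX E-box CACGTG (6.02%), the CArG box of serum response factor (1.47%) and the ATF4 composite TGATGNAAT (0.816%) found a match in 0 of 7 members. The count for TGATGNAAT holds for that full pattern only. The printed Atf3 stretch opens with bases that match, on the other strand, all of TGATGNAAT except its final T. The pattern without that T was not counted in the members or in the other windows, so a shorter form of the element was not tested. A match is a description of letters, not of a bound site, and these windows leave out elements farther from the start.

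With the inhibitor, 5 of the 8 AP-1 genes were higher than with DMSO, namely Jun, Atf3, Fos, Jund and Fosl1, and 1, Junb, was lower. These calls are limma adjusted p-values under 0.05, Benjamini-Hochberg adjusted over all 18193 genes. Of all genes, 19.2% were called higher and 22.3% lower in the same comparison, since 41.5% were called in all. Jun, Atf3, Fos and Jund were at least 2-fold higher, which held for 3.19% of all genes. The median log2 difference was 0.85 over the members and -0.06 over all genes. The members and the gene lists below were chosen with earlier results of these data known, so their shares are not an independent check. In bulk RNA, more cells with a transcript and more transcript per cell cannot be told apart.

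**Figure D1:**
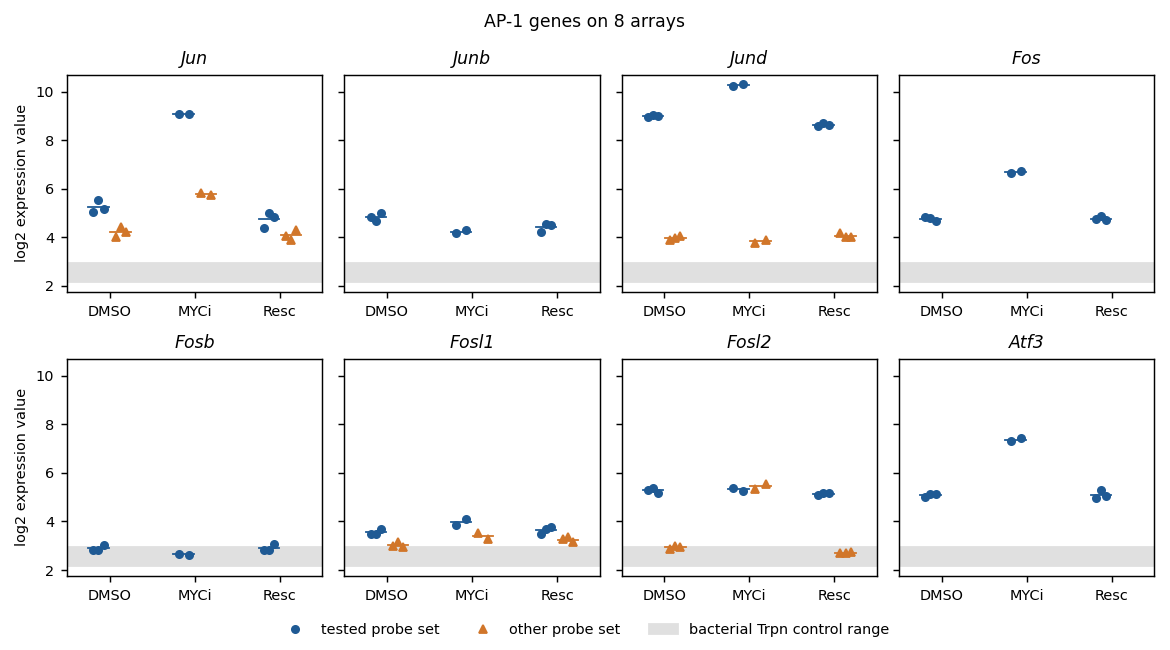
Log2 expression values (y axis) of the 8 AP-1 genes on the 3 DMSO, 2 MYCi and 3 Resc arrays. Points are arrays, short lines are group means, circles are the probe set used for the gene, triangles a further probe set of the same gene, and the grey band is the range of bacterial Trpn control probe sets, 2.15 to 2.95; Jun, Fos and Atf3 stand higher on both MYCi arrays than on all other arrays.

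Jun, the founding member and the main partner of FOS proteins, had log2 values of 5.06, 5.54 and 5.18 on the DMSO arrays and 9.09 and 9.10 on the MYCi arrays. On the Resc arrays it was 4.39, 4.99 and 4.84. Both MYCi arrays were far above the other 6, and each Resc array was below each DMSO array. The rise was 14.3-fold (3.83 ± 0.18 log2, moderated standard error; limma adjusted p = 2.17e-07) and ranked 9 among the upward differences of all genes. From the inhibitor to release it fell 20.4-fold (-4.35 ± 0.18; limma adjusted p = 8.81e-08). Against DMSO the released cells differed by -0.52 ± 0.16, which did not pass (limma adjusted p = 0.0753; 95% interval -0.87 to -0.17), although it did without low-level genes (0.0457), with a variance trend (0.00532) or with a replicate block (0.0351).

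Junb, a JUN protein that can oppose JUN at some promoters, went the other way. Its values were 4.83, 4.67 and 5.01 with DMSO, 4.17 and 4.32 with the inhibitor, and 4.24, 4.55 and 4.50 after release. The DMSO arrays were above all 5 others. The fall was 1.51-fold with the inhibitor (-0.59 ± 0.12; limma adjusted p = 0.00253). Released cells remained 1.33-fold lower than DMSO cells (-0.41 ± 0.11; limma adjusted p = 0.0428). That second call was narrow and ended without any single array other than DMSO replicate 2, with limma adjusted p from 0.055 to 0.127 in those 7 fits, and when every probe set was tested (0.051). Between released and inhibitor-treated cells Junb did not pass (0.18 ± 0.12; limma adjusted p = 0.248).

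Jund, the JUN gene transcribed in resting cells, was 8.96, 9.05 and 9.002 with DMSO, 10.26 and 10.30 with the inhibitor, and 8.59, 8.70 and 8.63 after release. The groups did not overlap in any pairing. It rose 2.42-fold with the inhibitor (1.28 ± 0.064; limma adjusted p = 3.78e-07) and was 3.11-fold lower after release than with the inhibitor (-1.64 ± 0.064; limma adjusted p = 7.42e-08). Released cells were also 1.29-fold below DMSO cells (-0.36 ± 0.058; limma adjusted p = 0.00429). This difference passed with each array left out in turn, between -0.39 and -0.34, but not for the mean of both Jund probe sets (-0.13; limma adjusted p = 0.19).

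Fos, the partner that forms the classic dimer with JUN, had values of 4.84, 4.80 and 4.68 with DMSO and 6.64 and 6.72 with the inhibitor. After release it was 4.75, 4.87 and 4.71, overlapping with DMSO, while both MYCi arrays were above all others. The rise was 3.75-fold (1.91 ± 0.077; limma adjusted p = 1.02e-07) and the fall on release 3.74-fold (-1.90 ± 0.077; limma adjusted p = 9.17e-08). Released and DMSO cells differed by 0.00 ± 0.069 (95% interval -0.15 to 0.16; limma adjusted p = 0.992).

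The other FOS genes were low or moved little on the probe set tested. Fosb, an inducible FOS protein, lay near the control band, at 2.81, 2.84 and 3.02 with DMSO, 2.68 and 2.64 with the inhibitor, and 2.81, 2.83 and 3.09 after release. At this level differences are compressed, and Fosb did not pass against DMSO with the inhibitor (-0.23 ± 0.098; limma adjusted p = 0.0882). It passed without Resc replicate 3 (limma adjusted p = 0.0446) and with median centring (0.04). Fosl1, which encodes FRA1, was 3.47, 3.49 and 3.70 with DMSO, 3.87 and 4.08 with the inhibitor, and 3.47, 3.67 and 3.77 after release. It rose 1.34-fold (0.42 ± 0.11; limma adjusted p = 0.0112), a call that ended without MYCi replicate 2 (0.32 ± 0.14; limma adjusted p = 0.111). Released cells were lower than inhibitor-treated cells (-0.34 ± 0.11; limma adjusted p = 0.0328), and this ended without MYCi replicate 2 (0.236), Resc replicate 1 (0.0929) or Resc replicate 2 (0.0551).

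Fosl2, which encodes FRA2, was measured by 2 probe sets, of which 1 was called. The higher of them, 1422931_at, was 5.28, 5.38 and 5.18 with DMSO, 5.38 and 5.25 with the inhibitor, and 5.10, 5.18 and 5.17 after release. The DMSO and MYCi arrays overlapped and the difference did not pass (0.04 ± 0.078; limma adjusted p = 0.715). The lower, 1437247_at, was 2.85, 3.00 and 2.95 with DMSO, 5.33 and 5.56 with the inhibitor, and 2.69, 2.71 and 2.76 after release. Here both MYCi arrays were far above the others, and 5 of those 6 lay inside the control band, so that the log2 differences below are compressed and may understate the change. In the fit of all 34945 probe sets it rose by 2.51 ± 0.085 (limma adjusted p = 3.42e-08) and fell on release by -2.73 ± 0.085 (limma adjusted p = 2.35e-08). The differences of the pair of probe sets from DMSO to inhibitor were 2.47 apart, and an exact permutation test could not pass 0.05, since 0.1 is the smallest p that the 10 splits of 5 arrays allow. Which part of the Fosl2 transcript each probe set reads is not given in the sources used here.

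Atf3, a bZIP factor of the stress response that pairs with JUN proteins, was 4.998, 5.15 and 5.12 with DMSO and 7.31 and 7.44 with the inhibitor. After release it was 4.97, 5.29 and 5.05. The MYCi arrays did not overlap with the others, and Resc and DMSO arrays did. Atf3 rose 4.88-fold (2.29 ± 0.10; limma adjusted p = 1.63e-07) and fell 4.83-fold on release (-2.27 ± 0.10; limma adjusted p = 1.37e-07). Released and DMSO cells differed by 0.02 ± 0.089 (limma adjusted p = 0.943).

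Jun, Jund and Fosl1 have further probe sets as well. The lower probe set of Jun, 1448694_at, was 4.03, 4.43 and 4.22 with DMSO, 5.85 and 5.76 with the inhibitor, and 4.06, 3.88 and 4.32 after release. It rose by 1.58 ± 0.14 (limma adjusted p = 1.29e-05 over all probe sets), in the same direction as the other and by a smaller step. Its Resc and DMSO arrays overlapped, and that difference did not pass (-0.14 ± 0.12; limma adjusted p = 0.578). The lower probe set of Jund, 1440265_at, was between 3.78 and 4.18 on all 8 arrays and did not rise (-0.14 ± 0.085; limma adjusted p = 0.24). Between released and inhibitor-treated cells it was slightly higher (0.24 ± 0.085; limma adjusted p = 0.0482), opposite to the higher probe set. The lower probe set of Fosl1 rose by 0.37 ± 0.10 (limma adjusted p = 0.0179) and did not pass between released and inhibitor-treated cells (-0.14 ± 0.10; limma adjusted p = 0.315). In all, 8 of the 12 probe sets were called higher and 1 lower with the inhibitor, against 17.5% and 19.9% of all 34945. After release 0 were higher than DMSO (3.61% of all) and 1, of Jund, lower (3.02%). Between released and inhibitor-treated cells 1 was higher (19.9%) and 7 lower (17%).

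**Figure D2:**
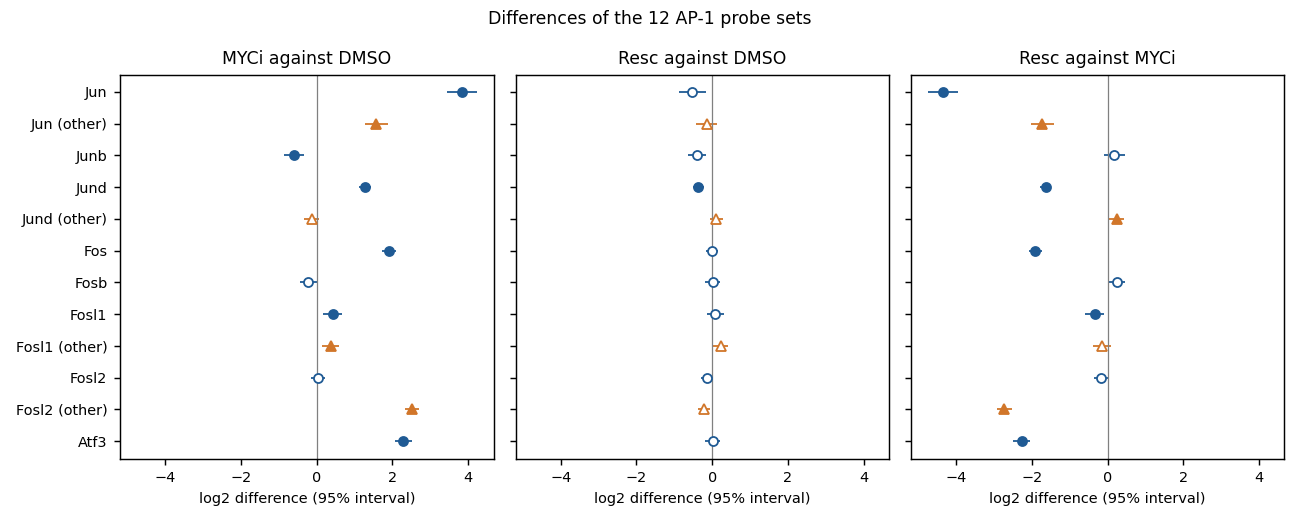
Log2 differences with 95% intervals (x axis) of the 12 AP-1 probe sets in the 3 comparisons, from the fit of every probe set. Filled symbols passed an adjusted p of 0.05 in that fit, circles are the probe sets used for the genes and triangles the others; the second probe set of Fosl2 rose by 2.51 where the first differed by 0.04.

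After withdrawal, no AP-1 gene was called higher than with DMSO and 2 were called lower, Junb and Jund. Among all genes 4.66% were called higher and 4.01% lower in this comparison, 8.66% in all. The values of the members did not overlap between released and DMSO arrays for 4 of 8, against 28.6% of all genes. Between released and inhibitor-treated cells 5 members were lower (Jun, Atf3, Fos, Jund and Fosl1) and 0 higher, where 19.2% of all genes were lower and 22.7% higher, 41.9% in all. Jun, Atf3, Fos and Jund fell at least 2-fold, as did 3.36% of all genes. Groups did not overlap for 7 of 8 members there (61.9% of all genes), as for 7 of 8 between inhibitor and DMSO (60.5%). The comparisons share arrays, so these counts are not independent of each other. The count of 0 higher against DMSO came from limma, with 0 of 8 also at an unadjusted p of 0.05.

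Of the bZIP genes outside the AP-1 members, 20 of 31 measured were called higher with the inhibitor and 2 lower, with a median of 0.58, where 19.2% of all genes were higher and 22.3% lower. The 2 lower were 1 to 4 with an array left out. Cebpb, a C/EBP factor of stress and differentiation, was 6.02, 6.38 and 6.32 with DMSO, 10.06 and 10.10 with the inhibitor, and 6.47, 6.51 and 6.62 after release. It rose 14.3-fold (3.84 ± 0.10; limma adjusted p = 1.25e-08). Ddit3, which encodes the stress factor CHOP, rose 7.22-fold (2.85 ± 0.12; 0.70 on its weaker probe set) and Atf5, a stress-induced ATF factor, 6.21-fold (2.63 ± 0.071). Maff, a small MAF protein that pairs with NRF and FOS proteins, rose 2.71-fold (1.44 ± 0.060).

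After release 2 of the 31 were called higher than DMSO and 1 lower, near the shares of all genes (4.66% and 4.01%), and the median was 0.02. Cebpb differed from DMSO by 0.29 ± 0.093 (limma adjusted p = 0.0877). The members called higher were Bach2 and Atf7. Bach2, a repressor that competes for AP-1-like sites, was 4.54, 4.19 and 4.36 with DMSO, 4.64 and 4.83 with the inhibitor, and 5.90, 5.78 and 5.86 after release. Its Resc arrays were thus above all others, 2.80-fold over DMSO (1.48 ± 0.092; limma adjusted p = 2.92e-05), and its weakest of 3 probe sets differed by -0.03. Atf7 passed narrowly (0.36 ± 0.096; limma adjusted p = 0.0493), and its other probe set differed by -0.10. Jdp2, a JUN-pairing repressor, had risen with the inhibitor (0.96 ± 0.063) and was lower than DMSO after release (-0.22 ± 0.056; limma adjusted p = 0.0428); its other probe set differed by -0.15 and 0.00. With an array left out, the counts after release were 1 to 2 higher and 0 to 1 lower.

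**Figure D3:**
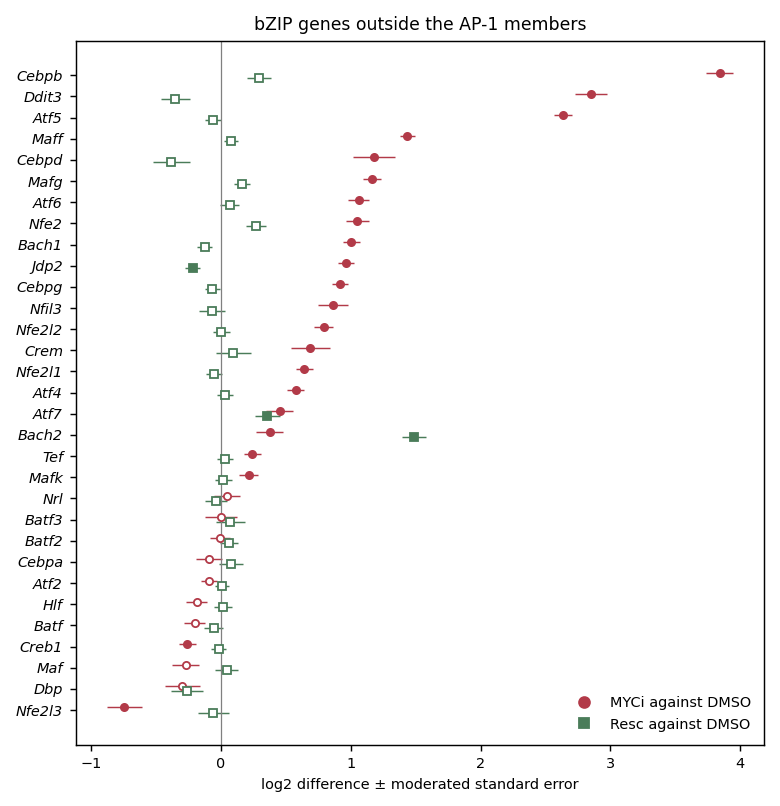
Log2 differences ± moderated standard error (x axis) of the 31 measured bZIP genes outside the AP-1 members, for MYCi against DMSO (circles) and Resc against DMSO (squares), filled where adjusted p was under 0.05. Cebpb is at the top with 3.84 for the inhibitor, and Bach2 stands out after release with 1.48.

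Of 25 measured genes of the JNK and p38 kinase pathway, which acts on JUN and ATF proteins, 7 were higher, 4 lower and 14 not called with the inhibitor, with a median of -0.03. These counts are near the 19.2% and 22.3% of all genes. Spag9, a JNK scaffold, rose 2.33-fold (1.22 ± 0.075), though 1 of its 3 probe sets differed by -0.01, and Mapkapk2, a kinase below p38, rose by 0.50 ± 0.082. The p38 kinase gene Mapk13 fell by 0.92 ± 0.076 on the log2 scale and Map2k6, an activator of p38, by 1.03 ± 0.077. In released cells 1 of the 25 was higher than DMSO and 2 lower, against 4.66% and 4.01% of all genes. The count of 2 lower was 1 without DMSO replicate 3 or Resc replicate 3. Lower were Mapk13 (-0.55 ± 0.068; limma adjusted p = 0.00118) and Map2k6 (-0.34 ± 0.069; limma adjusted p = 0.0150). Map3k5, which encodes the stress kinase ASK1, was 1.89-fold above DMSO (0.92 ± 0.067; limma adjusted p = 5.68e-05). Its Resc arrays were 7.51, 7.54 and 7.56 against 6.67, 6.49 and 6.69 with DMSO and 6.85 and 6.80 with the inhibitor.

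Among 14 measured genes of the ERK pathway and the partners of serum response factor, 4 were higher and 2 lower with the inhibitor (4 lower without DMSO replicate 3), with a median of -0.08, against 19.2% and 22.3% of all genes. Braf (0.63 ± 0.074), Map2k5, which acts on ERK5 (0.55 ± 0.068), and the RSK kinase gene Rps6ka3 (0.64 ± 0.086) rose, and Map2k2, encoding the MEK2 kinase, fell by 0.44 ± 0.069 on the log2 scale. Other probe sets of Rps6ka3 were called lower, down to -0.51, those of Braf ran from -0.10 and those of Map2k5 from 0.01. Of 11 measured phosphatases that switch off these kinases, 6 were higher and 3 lower with the inhibitor, against 19.2% and 22.3% of all genes. After release 4 were higher and 1 lower, against 4.66% and 4.01%. Dusp6, a feedback phosphatase of ERK, was 5.87, 5.83 and 5.70 with DMSO, 4.79 and 4.82 with the inhibitor, and 6.35, 6.56 and 6.54 after release. It was thus 1.99-fold lower with the inhibitor (-0.99 ± 0.083; limma adjusted p = 8.73e-06) and 1.61-fold above DMSO after release (0.68 ± 0.075; limma adjusted p = 5.92e-04). Fos and the phosphatase gene Dusp5 were higher with the inhibitor and not called against DMSO after release. A link of either phosphatase gene to Fos was not tested.

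Dusp16, a phosphatase with a preference for JNK, rose 2.25-fold (1.17 ± 0.072), Dusp5, specific for nuclear ERK, 2.59-fold (1.37 ± 0.099), and Dusp1, itself an immediate-early gene, 1.93-fold (0.95 ± 0.069). Of 14 measured genes in a list made around the turnover of JUN and FOS proteins, 4 were higher and 2 lower with the inhibitor. The median was 0.09, and the shares of all genes were 19.2% and 22.3%. The list also holds Trib1, Trib2 and Trib3, whose part in that turnover was not tested. Trib3, a pseudokinase of the stress response, rose 3.53-fold (1.82 ± 0.075) and the ligase gene Itch, whose product marks JUN for degradation, 1.30-fold (0.38 ± 0.059). Trib2 fell by 0.98 ± 0.071 on the log2 scale on 1 of its 3 probe sets, the weakest of which differed by -0.04, and Cops5, known as the JUN coactivator JAB1, fell by 0.39 ± 0.060.

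Of 30 other immediate-early genes measured, 15 were higher and 4 lower with the inhibitor, with a median of 0.28, against 19.2% and 22.3% of all genes. Ccn2, a matricellular protein gene, rose 5.67-fold (2.504 ± 0.073) and Plk2, a stress-induced kinase, 5.33-fold (2.41 ± 0.076; 0.03 on its other probe set). Sgk1, a kinase induced by serum and glucocorticoids, fell 4.38-fold (-2.13 ± 0.062), with values of 11.02, 11.03 and 11.09 in DMSO and 8.88 and 8.94 in inhibitor-treated cells. Egr1 was picked out here after its values were seen, because it shares the ERK and serum response factor route with Fos. It was 3.50, 3.60 and 3.97 with DMSO and 3.54 and 3.46 with the inhibitor, not far above the control band. Its difference did not pass (-0.19 ± 0.12, limma adjusted p = 0.249), and the route of the Fos rise was not tested. After release 3 of 30 were higher and 4 lower than with DMSO, against 4.66% and 4.01%. The count of 4 lower with the inhibitor was 2 without MYCi replicate 2.

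Genes often cited as AP-1 targets were called in both directions. Of 41 measured, 11 were higher and 9 lower with the inhibitor, near the 19.2% and 22.3% of all genes, and the median was 0.02. Among those higher were Ptgs2, the inducible prostaglandin synthase (4.50 ± 0.088; 2.51 on its other probe set), and the simple keratin genes Krt18 (4.996 ± 0.15) and Krt8 (3.24 ± 0.086). Ptgs2 lay between 2.62 and 2.82 with DMSO, inside the control band, so its fold is compressed. Ccnd1, which encodes cyclin D1, fell 6.53-fold (-2.71 ± 0.074). After release 7 of 41 were higher than DMSO and 4 lower, against 4.66% and 4.01% of all genes. The 9 lower with the inhibitor were 5 without either MYCi replicate. After release the count of 7 was 4 without DMSO replicate 1, DMSO replicate 3 or Resc replicate 3, and the count of 4 was 0 to 2 whichever array was left out. Krt18 was still 3.00-fold above DMSO (1.59 ± 0.13; limma adjusted p = 1.16e-04).

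**Figure D4:**
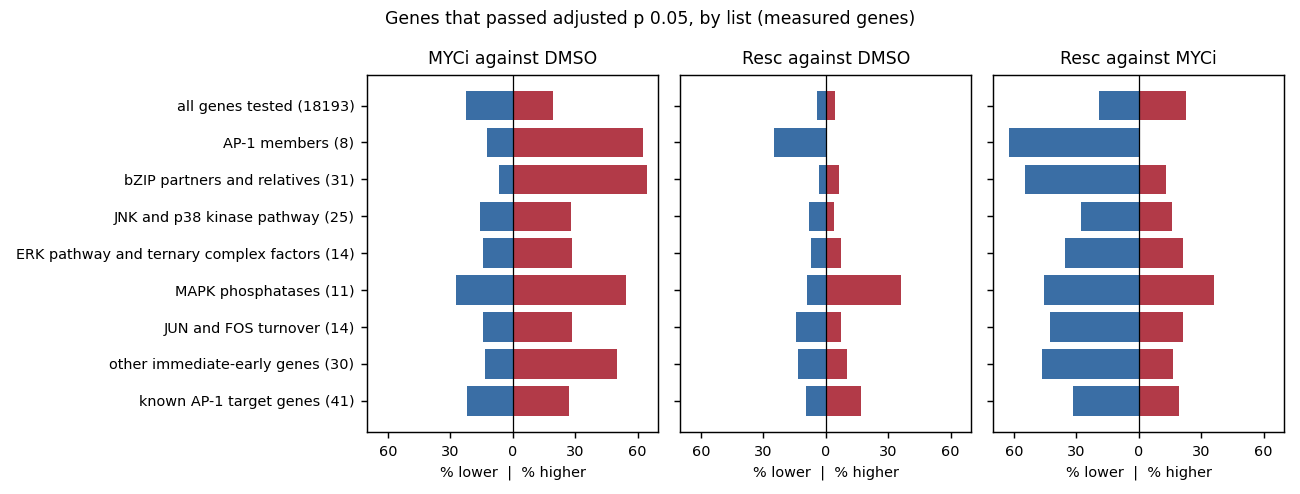
Share of measured genes (x axis, %) called higher (red, to the right) or lower (blue, to the left) at an adjusted p of 0.05, for all 18193 genes and for each list, in the 3 comparisons. The AP-1 members and the other bZIP genes reach farther right than all genes with the inhibitor, with 5 of 8 and 20 of 31 called higher. The AP-1 target list, 11 of 41, is near all genes. Lists were chosen with earlier results of these data known. The immediate-early list shares Maff with the bZIP list and Dusp1 with the phosphatase list.

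The genes whose 8 array values, centred on each gene's mean, lay closest to those of a member by Euclidean distance were named for each member called in any comparison. For Jun they were Ush1c (distance 0.89), Ptgs2 (1.03) and Acot2 (1.18), and for Fos Gclm (0.215), Lactb (0.277) and Heph (0.29). For Atf3 they were Snhg11 (0.24), Irx3 (0.274) and Eomes (0.277), a T-box factor. For Jund they were Btg1 (0.129), an antiproliferative immediate-early gene, Elovl7 (0.183) and Mex3b (0.185). Ush1c differed from DMSO by 3.66 with the inhibitor and by -0.55 in released cells. It was chosen for nearness to Jun on all 8 arrays, so its likeness to Jun on release follows from that choice. Those closest to Junb were Cc2d1a (0.263), Hmgn5 (0.273) and Car12 (0.275), and to Fosl1 Setd4 (0.159), Acsl4 (0.178) and Sema7a (0.185). Nearness over 8 arrays in 3 groups mostly restates the group means.

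The cells carried the markers of ESCs on every array. The mean log2 level of 12 ESC markers was between 10.65 and 10.81, with 4 higher and 4 lower with the inhibitor. Lower were, among others, Utf1 (-1.79 ± 0.061; -0.02 on its weakest probe set) and Dppa3 (-1.08 ± 0.072). Zfp42 (0.69 ± 0.073) and Klf4 (0.46 ± 0.076) were among those higher. After release Dppa3 was still below DMSO (-1.33 ± 0.065; limma adjusted p = 8.72e-06), the only marker of the 12 called. The mean level of 13 measured fibroblast and feeder markers was between 3.52 and 3.66, with 0 higher and 1 lower. For 12 primitive endoderm markers it was between 4.21 and 4.36, with 0 higher and 3 lower. Of all genes, 19.2% were called higher and 22.3% lower with the inhibitor. The mean of the trophectoderm markers was higher on MYCi arrays than on all others. It was 5.94 to 6.03 on MYCi arrays, 5.49 to 5.57 on DMSO arrays and 5.37 to 5.49 on Resc arrays. With the inhibitor 6 of 12 were higher, 1 lower and 5 not called, led by Eomes (2.23 ± 0.070). Gata3 (1.28, inside the control band with DMSO) and Krt7 (1.10) were also called higher. The defining factor genes Cdx2 (-0.20) and Elf5 (0.08, inside or near the control band) were not called, nor was Tfap2c on any of its 3 probe sets (0.20 to 0.26). After release 0 of 12 were higher than DMSO and 2 lower, against 4.66% and 4.01% of all genes. Tfap2c then differed from DMSO by -1.20 to -1.02 and Krt7 by -1.2, so single markers did not all follow the AP-1 genes. The part of these markers in the AP-1 result was not tested. As a sign of RNA quality, the 3′ minus 5′ difference of the Gapdh controls was -0.15 and -0.22 on the MYCi arrays and -0.13 to -0.11 on the others. Its part was not tested either.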

How the data were processed

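The values deposited by the authors are log2 intensities summarised per probe set. Tools named in the submitters' processing notes are oligo 1.32.0, limma 3.2.15 and the RMA method. The range of 1.69 to 13.76 fits a log2 scale, which no label states. RMA makes arrays equal in distribution, so a change shared by most genes is not visible. Arrays have no read depth, and their number limits the precision.

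Of 45101 probe sets, 34945 carry 1 gene symbol in the platform annotation, and for each of 18193 genes the probe set with the highest mean over 8 arrays was kept. All arrays were fitted together with limma 3.58.1 in R 4.3.3 (1 mean per group, 5 residual and 4.55 prior degrees of freedom, two-sided, Benjamini-Hochberg, threshold 0.05), and every probe set was fitted likewise. The procedure was tested on simulated data. Figures used Python 3.11.15 and matplotlib 3.10.9.

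The members and gene lists were chosen with earlier results of these data known. Named besides all members were up to 4 genes per list with the smallest p among those called, and the 3 nearest genes per called member; Egr1, Cdx2 and Elf5 were added outside this rule. Of the listed genes, those without a probe set of 1 gene were not analysed here. Alternatives were other rules for the probe set, a level filter at the 30th percentile, array weights, median centring, a second quantile normalization, a robust fit with a variance trend, stricter thresholds, only the arrays compared, a replicate block and leaving out each array. Counts of the lists under these alternatives were added after the data were seen.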

Additional observations from a re-analysis of the deposited data

How the results depend on the processing

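Of the 8 members, 5 were higher with the inhibitor than with DMSO, and this count was between 4 and 6 under every alternative run. The level filter removed Fosb and Fosl1, so its counts are over the other members only. The count of 1 lower became 2 with median centring, as Fosb passed, and 0 with a 2-fold minimum, and was 1 to 2 with an array left out. The 2 members lower in released than in DMSO cells became 1 with the mean of probe sets, with only the arrays compared and at an adjusted p under 0.01, 0 with the lowest probe set or a 2-fold minimum, and 1 to 2 with an array left out. Between released and inhibitor-treated cells, 1 member (Fosb) was higher with median centring instead of 0. With the lowest probe set, Jund changed sign in all 3 comparisons (-0.14, 0.10 and 0.24), and Fosl2 was called (2.51 and -2.73), as with the mean of its probe sets (1.28 and -1.45). With the replicate number as a block, 5 members were higher and 1 lower with the inhibitor, 5 lower on release, and 3 lower against DMSO after release, since Jun passed (limma adjusted p = 0.0351). Jun also passed there without low-level genes (0.0457) and with a variance trend (0.00532). Its lower probe set did not pass there in the fit of every probe set (-0.14; limma adjusted p = 0.578). Same-numbered arrays did not deviate together (correlations of -0.056 to 0.014), and arrays of different numbers had correlations of -0.06 to 0.069. With only 2 or 3 arrays per group, each centred on its group mean, this cannot show whether the numbers pair the samples. Over all genes, a variance trend with a robust fit called 1382 higher and 1259 lower in released against DMSO cells, in place of 847 and 729. Of 450 single-gene values under alternatives, 414 kept their direction and call or stayed uncalled. Other bZIP genes higher with the inhibitor were 9 to 20 over the alternatives (main 20), and 17 to 20 with an array left out. The calls over all genes moved as well. Of 18193 genes, 3497 were higher with the inhibitor in the main fit, 2171 with the lowest probe set and 580 with a 2-fold minimum. With the level filter 3487 of 12735 were higher. Levels near the control band, as for Fosb, limit what can be seen.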
